A study of Mus musculus with 5 samples.

Results

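The genes of lipid uptake, storage and lipolysis examined here were 10 of the 54113 named entries of the count table. They were chosen by gene symbol for their known roles, with earlier results of these data known. Cd36 and Lpl stood for fatty acid uptake, Fabp4 and Fabp5 for fatty acid binding, Plin2 and Plin3 for the coat of lipid droplets, Dgat1 and Dgat2 for triacylglycerol synthesis, and Pnpla2 and Lipe for lipolysis. RNA had been sequenced from tissue labelled as tumour of C57BL/6 mice that carried the colon adenocarcinoma line MC38, a colorectal cancer (CRC) model, and were kept for 2 weeks at 30 °C, which is thermoneutral for mice (3 tumours), or at 4 °C (2 tumours). The purpose was to compare gene expression of tumours grown under cold exposure with that of tumours grown at thermoneutrality. All 5 tumours came from 1 implanted cell line, and the labels name no other treatment or genotype for either group. The study implanted this line under the skin and, in another model, into the liver. Its methods mention tumour collection for RNA sequencing after the subcutaneous model, without naming the site of these libraries. The study used male and female young adult mice, but the age and sex of the sequenced animals are not given in the sources used here. The labels do not say whether each library came from a separate animal. The p-values therefore measure only the spread between these samples.

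Fatty acids reach cells either bound to albumin or after lipoprotein lipase has released them from triglyceride-rich lipoproteins, and the scavenger receptor CD36 helps them across the membrane. Inside the cell they are carried by small binding proteins, esterified to triacylglycerol in the endoplasmic reticulum and stored in droplets coated by perilipins, from which lipases release them one after another. In adipose tissue this cycle is under hormonal control and cold drives lipolysis there, while in tumours the same genes are used by cancer cells, macrophages, endothelium and any fat that is included.

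Each of the 10 genes was counted in each of the 5 libraries and passed the filter on low counts. The lowest count was 76, for Fabp4 in 30 °C replicate 1, with a 95% Poisson half-width of 23.2% of the value. Such intervals cover counting error only, since reads were not counted by molecular identifiers. Library totals lay between 16191708 and 20320525 counts, so that 3 counts, taken as the floor, equalled 0.148 to 0.185 CPM (counts scaled to a library of 1000000). Levels below are CPM scaled by the TMM method, and log2 fold changes are 4 °C minus 30 °C from the quasi-likelihood test of edgeR, adjusted over 16133 genes by the Benjamini-Hochberg procedure.

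The libraries are called tumours here as their labels do, but they held few epithelial transcripts, and libraries of the same group differed in content. In 30 °C replicate 2, 24 pancreatic acinar genes held 27.8% of the counts, against 0.27% in 4 °C replicate 2 and less in the other 3 libraries. Neutrophil markers summed to 11788 CPM in 30 °C replicate 1 and to between 2405 and 7968 CPM in the others. The 10 epithelial and colon carcinoma markers summed to only 17.3 to 175 CPM, with the intestinal factor Cdx1 at 0 counts in every library, whereas B cell markers reached 1138 to 3228 CPM, erythroblast markers 9965 to 29972 CPM and red pulp macrophage markers 1298 to 1782 CPM. The splenic mesenchyme factors Tlx1, Nkx2-5 and Nkx2-3 summed to 32.5 to 61.2 CPM. Of the 13 marker lists, those of B cells, T cells and splenic mesenchyme were higher in both 4 °C libraries than in every 30 °C library. The B cell sums nearly met, at 2851 CPM in 30 °C replicate 3 and 2868 CPM in 4 °C replicate 2. Among single genes tested, 23.3% did not overlap between the groups, in either direction. What tissue the RNA came from was not tested beyond these sums. No member belonged to a marker list. In bulk tumour RNA, fewer cells of a type and less RNA per cell cannot be told apart.

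None of the 10 genes differed between the temperatures beyond the spread between libraries. At an adjusted p under 0.05, 0 members were called by edgeR, against 0% of all genes tested. At an unadjusted p under 0.05 the count was also 0, where 6.76% of all genes passed. DESeq2 gave 1 member (Dgat2) at that level and 0 after adjustment, where 1315 of the 27400 genes with any count passed unadjusted. Without 30 °C replicate 3, edgeR gave 2 members (Dgat1 and Dgat2), again with 0 after adjustment, where 1477 of 15786 genes passed unadjusted. The 4 °C libraries stood entirely above or below the 30 °C libraries for 0 members, against 23.3% of all genes. The fold change was below 0 for 7 members (49.3% of all genes), and the median log2 fold change of the members was -0.10, against 0.01 over all genes tested. The median without each library in turn lay between -0.22 and -0.04. The fold changes farthest from 0 were those of Dgat2 and Dgat1, and the nearest were those of Plin3, Cd36 and Lpl.

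**Figure D1:**
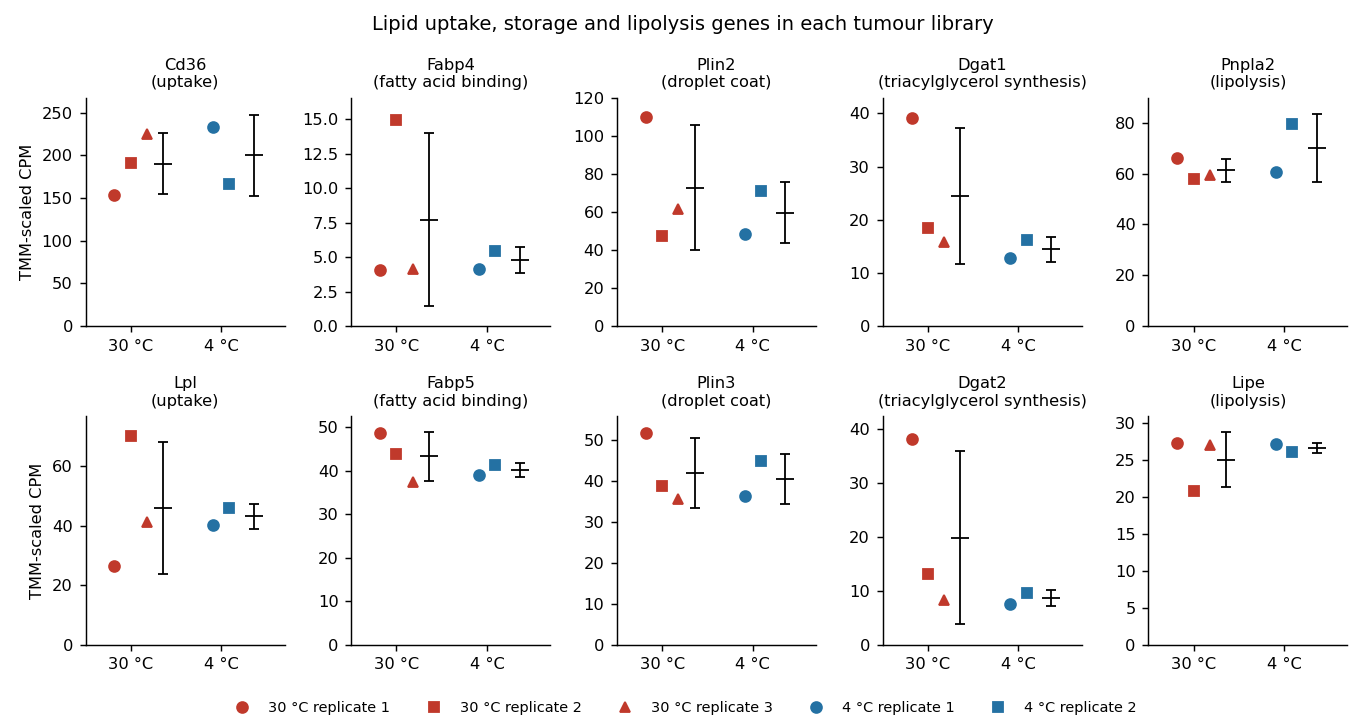
TMM-scaled CPM of each of the 10 genes in each library, with the group mean as a short horizontal line and 1 SD as the error bar (3 libraries at 30 °C, 2 at 4 °C). The groups overlap in every panel, and single 30 °C libraries stand high for Dgat1, Dgat2 and Plin2 (replicate 1) and for Lpl and Fabp4 (replicate 2).

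Of the uptake genes, Cd36 encodes the scavenger receptor that binds long-chain fatty acids and oxidized lipoproteins (chromosome 5, 17781690 to 17888801, minus strand, GRCm38). Its level was 154, 191 and 225 CPM in the 30 °C libraries and 234 and 166 CPM in the 4 °C libraries. The 4 °C pair thus held both the highest value and a value below 2 of the 3 at 30 °C. The means were 190.1 ± 35.6 (SD, n = 3) at 30 °C and 200.0 ± 47.5 CPM (SD, n = 2) at 4 °C, and the log2 fold change was 0.07 (SE 0.24, adjusted p = 0.963, edgeR). The 95% interval of that difference ran from -0.50 to 0.65, which leaves room for a change of either sign.

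Lpl encodes lipoprotein lipase, which hydrolyses triglycerides of circulating lipoproteins at the capillary wall (chromosome 8, 68880491 to 68907448, plus strand). It measured 26.3, 70.1 and 41.1 CPM at 30 °C and 40.2 and 46.1 CPM at 4 °C, so both cold libraries fell inside the 30 °C range. The means of 45.9 ± 22.3 and 43.2 ± 4.17 CPM gave a log2 fold change of -0.08 (SE 0.40, adjusted p = 0.974, edgeR; 95% interval -1.04 to 0.87). Without 30 °C replicate 2 the value was 0.35 and without 30 °C replicate 1 it was -0.36, so the sign rested on single libraries.

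Fabp4, the fatty acid binding protein of adipocytes, also made by macrophages and endothelium (chromosome 3, 10204088 to 10208576, minus strand), had the lowest level of the 10 genes per length. The libraries at 30 °C held 76, 182 and 95 counts (4.04, 14.9 and 4.15 CPM), and those at 4 °C 83 and 91 counts (4.13 and 5.45 CPM). All but 30 °C replicate 2 lay close together, and that library was 2.74 times the next highest. The log2 fold change was -0.68 (SE 0.65, adjusted p = 0.870, edgeR; 95% interval -2.23 to 0.88), from means of 7.71 ± 6.27 and 4.79 ± 0.936 CPM. It turned to 0.21 without 30 °C replicate 2.

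Lpl and Fabp4 were both highest in the library rich in acinar transcripts, which also had the highest sum of the 10 adipocyte markers, 33.2 CPM against 9.08 to 13.0 CPM in the other 4 libraries. Of these sums, Slc2a4 alone gave 12.6, 16.8 and 6.68 CPM at 30 °C and 4.33 and 7.61 CPM at 4 °C. Only 2 of the 10 adipocyte markers were above the floor in every library. Adiponectin (Adipoq) had 0, 14 and 0 counts at 30 °C and 17 and 2 at 4 °C, adipsin (Cfd) 0, 150 and 0 counts at 30 °C and 128 and 53 at 4 °C, and leptin (Lep) 0 in all 5. Adipoq and Cfd were thus also high in 4 °C replicate 1, where Fabp4 was not. Endothelial markers were highest in 30 °C replicate 3 (501 CPM) and lowest in 30 °C replicate 1 (297 CPM). The part of these cell types in the levels of Lpl and Fabp4 was not tested.

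Fabp5, a binding protein of epithelial cells and macrophages (chromosome 3, 10012548 to 10016607, plus strand), was the steadiest of the 10 genes. It measured 48.6, 43.9 and 37.4 CPM at 30 °C and 39.0 and 41.3 CPM at 4 °C, and both cold libraries lay within the 30 °C range. The log2 fold change was -0.11 (SE 0.18, adjusted p = 0.928, edgeR), with a 95% interval of -0.55 to 0.34. Of its 50-base transcript windows, 5.48% also occurred in other genes, mostly in Gm6166, so a share of its reads could have been assigned elsewhere.

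The droplet coat gene Plin2 encodes perilipin 2, found on droplets of nearly all cells and stabilised by the lipid it covers (chromosome 4, 86648386 to 86670060, minus strand). Its level was 109.8, 47.4 and 61.5 CPM at 30 °C and 48.3 and 71.1 CPM at 4 °C. The highest value came from 30 °C replicate 1, and the other 4 libraries were mixed between groups. The means of 72.9 ± 32.7 and 59.7 ± 16.1 CPM gave a log2 fold change of -0.29 (SE 0.39, adjusted p = 0.910, edgeR; 95% interval -1.22 to 0.64), which turned to 0.13 without that library.

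Plin3, a coat protein that moves from the cytosol to new droplets (chromosome 17, 56277476 to 56292873, minus strand), varied less. It measured 51.7, 38.7 and 35.6 CPM at 30 °C and 36.2 and 44.9 CPM at 4 °C, again highest in 30 °C replicate 1. The log2 fold change was -0.05 (SE 0.23, adjusted p = 0.972, edgeR; 95% interval -0.60 to 0.50), and its sign turned without 30 °C replicate 1 (0.13) and without 4 °C replicate 1 (0.10).

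Plin2 and Cd36 are textbook targets of peroxisome proliferator-activated receptors, so their upstream sequences were read for the nuclear receptor half-site AGGTCA on either strand. RefSeq upstream sequence on GRCm38.p6 was matched for 5 members (Plin2, Cd36, Plin3, Lipe and Pnpla2), with 6 promoters in all. Of these 6, 2 held the half-site, those of Plin2 and Cd36, against 14.0% of 32851 mouse promoters. No sequence was matched for the other 5 members, Lpl and Fabp4 among them, so their promoters were not read. The 250 bases before the annotated start are shown 5′ to 3′ on the gene's strand with the half-site in capitals, read as TGACCT in both. It begins at position -218 in Plin2 (chr4:86670060-86670309) and at position -228 in Cd36 (chr5:17835897-17836146, within the gene as GENCODE draws it), counting back from the start.
Plin2: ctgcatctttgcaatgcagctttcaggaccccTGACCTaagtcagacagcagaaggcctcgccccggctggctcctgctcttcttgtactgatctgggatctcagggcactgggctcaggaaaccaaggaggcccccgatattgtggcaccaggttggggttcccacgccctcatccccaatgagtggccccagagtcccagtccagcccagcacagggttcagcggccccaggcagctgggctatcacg
Cd36: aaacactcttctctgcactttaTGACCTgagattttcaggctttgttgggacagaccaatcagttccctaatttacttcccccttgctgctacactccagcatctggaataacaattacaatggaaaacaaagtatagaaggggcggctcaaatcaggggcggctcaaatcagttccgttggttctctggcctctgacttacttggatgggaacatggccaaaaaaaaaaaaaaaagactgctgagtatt
The direct repeat of this half-site, with any 1 base between the copies, occurred in none of the member promoters and in 0.0335% of all. The GC box GGGCGG was held by 4 of the 6 member promoters (Cd36, Lipe, Pnpla2 and Plin3) and by 32.7% of all promoters, CCAAT by 3 of 6 (Plin2, Cd36 and Plin3) and 33.8%, and TATAAA by none and 12.4%. A match describes the letters only. In TMM-scaled CPM, the 2 genes with the half-site did not vary alike over the libraries. Plin2 was highest in 30 °C replicate 1, where Cd36 was lowest. Without TMM scaling, both were lowest in 30 °C replicate 2 (34.9 CPM for Plin2 and 141 CPM for Cd36).

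Dgat1 encodes one of the enzymes that complete triacylglycerol from diacylglycerol, an endoplasmic reticulum protein of the membrane-bound acyltransferase family (chromosome 15, 76502015 to 76511953, minus strand). It measured 39.1, 18.4 and 15.8 CPM at 30 °C and 12.8 and 16.1 CPM at 4 °C, the cold pair overlapping the 30 °C libraries only at replicate 3. Without TMM scaling, 30 °C replicate 2 (13.5 CPM) lay below both cold libraries (13.8 and 16.6 CPM). The level in 30 °C replicate 1 was 2.13 times the next highest. The means were 24.4 ± 12.8 and 14.4 ± 2.36 CPM, and the log2 fold change was -0.76 (SE 0.43, unadjusted p = 0.121, adjusted p = 0.798, edgeR; 95% interval -1.79 to 0.27).

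Dgat2, the unrelated acyltransferase that makes triacylglycerol at the droplet surface, largely from newly made fatty acids (chromosome 7, 99153658 to 99182719, minus strand), had the widest spread of the 10 genes. Its counts were 719, 160 and 188 at 30 °C and 151 and 161 at 4 °C, which correspond to 38.3, 13.1 and 8.21 CPM and to 7.51 and 9.65 CPM. The level in 30 °C replicate 1 was 2.91 times the next highest and 5.10 times the lowest. The log2 fold change was -1.21 (SE 0.67, unadjusted p = 0.118, adjusted p = 0.793, edgeR; 95% interval -2.84 to 0.41), from means of 19.9 ± 16.1 and 8.58 ± 1.51 CPM. Both values of this pair shrank without 30 °C replicate 1, to -0.24 for Dgat1 and -0.31 for Dgat2, whereas without 30 °C replicate 3 they were -1.0 and -1.59 (adjusted p = 0.516 and 0.463, edgeR). The largest differences among the members thus rested on 1 library.

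The library with the highest Dgat1, Dgat2 and Plin2 also had the highest sums of neutrophil and early myeloid markers. Early myeloid markers (5 of the 6 listed were in the table) summed to 1721, 994 and 249 CPM at 30 °C and to 190 and 357 CPM at 4 °C. Neutrophil markers summed to 11788, 7968 and 2873 CPM at 30 °C and to 2405 and 3838 CPM at 4 °C. In TMM-scaled CPM over the 5 libraries, both sums had the same order as Dgat1 and Dgat2, while Plin2 was lowest in 30 °C replicate 2, where both sums were second. Without TMM scaling this order was not shared. Dgat1 was then lowest in 30 °C replicate 2 (13.5 CPM), and Dgat2 was lower there (9.68 CPM) than in 4 °C replicate 2 (9.94 CPM). Their part in the levels of Dgat1, Dgat2 and Plin2 was not tested.

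Pnpla2 encodes adipose triglyceride lipase, which takes the first fatty acid from triacylglycerol (chromosome 7, 141455198 to 141460743, plus strand). It measured 66.2, 57.8 and 59.6 CPM at 30 °C and 60.7 and 79.4 CPM at 4 °C. The highest library was 4 °C replicate 2, while 4 °C replicate 1 lay among those at 30 °C. The means of 61.2 ± 4.42 and 70.1 ± 13.3 CPM gave a log2 fold change of 0.19 (SE 0.19, adjusted p = 0.871, edgeR; 95% interval -0.26 to 0.65), and without 4 °C replicate 2 it was -0.03.

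Lipe, the hormone-sensitive lipase that acts mainly on diacylglycerol (chromosome 7, 25379527 to 25398710, minus strand), was nearly level. Its values were 27.2, 20.7 and 27.0 CPM at 30 °C and 27.1 and 26.1 CPM at 4 °C, with only 30 °C replicate 2 standing lower. The log2 fold change was 0.09 (SE 0.20, adjusted p = 0.947, edgeR; 95% interval -0.39 to 0.57). Lipe shares 918 exonic bases (15.6% of its exons) with the antisense gene 4732471J01Rik, and since the strand setting of the counting is not given, reads there cannot be told apart. That gene itself had 1 to 8 counts.

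**Figure D2:**
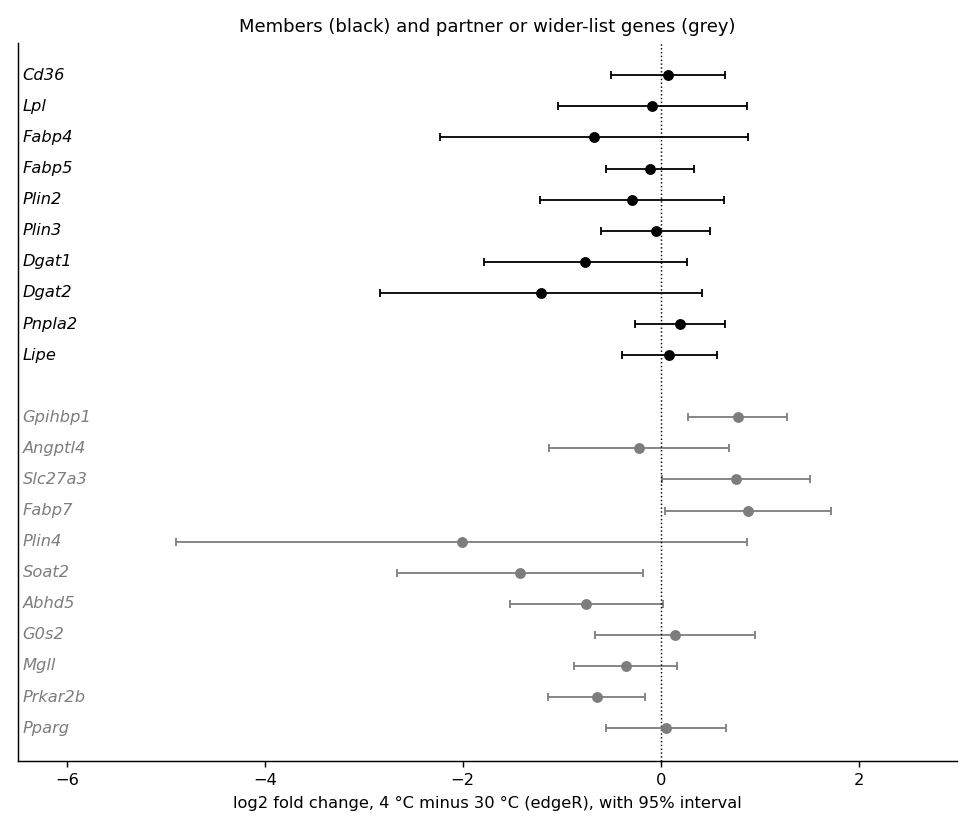
Log2 fold change (4 °C minus 30 °C, edgeR) with its 95% interval, for the 10 genes (black, grouped by role) and for partner or wider-list genes (grey). Every interval of the 10 genes includes 0, and the widest of these are those of Dgat2 and Fabp4. Among the grey genes, the intervals of the 5 with the smallest p do not include 0, and none of these passed the correction over all genes.

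Levels of different genes were set against each other per length, as CPM per kilobase of exon. Cd36 was the most abundant at 54.0 ± 9.76 CPM per kb (SD, n = 5 libraries) and was the only gene whose 5 libraries all stood above all 5 of the next gene. Pnpla2 followed at 21.4 ± 2.91, Plin2 at 19.3 ± 7.27, Fabp5 at 11.8 ± 1.24 and Plin3 at 10.9 ± 1.80 CPM per kb. The ranges of all other neighbours in this order overlapped over the libraries, and Pnpla2 exceeded Plin2 in 4 of 5 libraries and Fabp5 exceeded Plin3 in 3 of 5. The lower levels were those of Dgat1 (6.69 ± 3.48), Dgat2 (4.98 ± 4.21), Lipe (4.35 ± 0.472), Lpl (4.28 ± 1.52) and Fabp4 (1.46 ± 1.05 CPM per kb). The order below Cd36 depended on the length used. With the longest transcript as the length, 5 levels moved by more than their SD. These were Lpl at 10.9 CPM per kb (from rank 9 to 6), Plin2 at 35.8 (from 3 to 2), Pnpla2 at 24.7 (from 2 to 3), Dgat1 at 10.8 (from 6 to 7) and Lipe at 6.90 CPM per kb (rank 8 in both). Dgat2 went from rank 7 to 9. The levels differ because the exons of all isoforms together are longer than any one transcript.

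Within a library the ratio of the counts of paired members does not depend on scaling between libraries. These ratios are not corrected for length, so they are compared between libraries and do not show which gene of a pair has the higher level. The log2 ratio of Fabp4 to Fabp5 was -3.59, -1.55 and -3.17 at 30 °C and -3.24 and -2.92 at 4 °C, highest in 30 °C replicate 2. The log2 ratio of Dgat1 to Dgat2 was 0.03, 0.49 and 0.95 at 30 °C and 0.77 and 0.74 at 4 °C. It was lowest in 30 °C replicate 1, the library where both enzymes were highest. For Plin2 to Plin3 the values were 1.09, 0.29 and 0.79 at 30 °C and 0.42 and 0.66 at 4 °C. The log2 ratio of Pnpla2 to Lipe was 1.28, 1.48 and 1.14 at 30 °C and 1.17 and 1.61 at 4 °C. That of Cd36 to Lpl was 2.55, 1.45 and 2.45 at 30 °C and 2.54 and 1.85 at 4 °C, lowest in 30 °C replicate 2, where Lpl was highest. Each of the 5 ratios overlapped between the groups. The differences of group means lay between -0.31 and 0.27, and two-sided exact permutation tests gave p = 0.6 or 1 (adjusted p = 1 for all 5 ratios), where 3 libraries against 2 cannot go below 0.2.

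**Figure D3:**
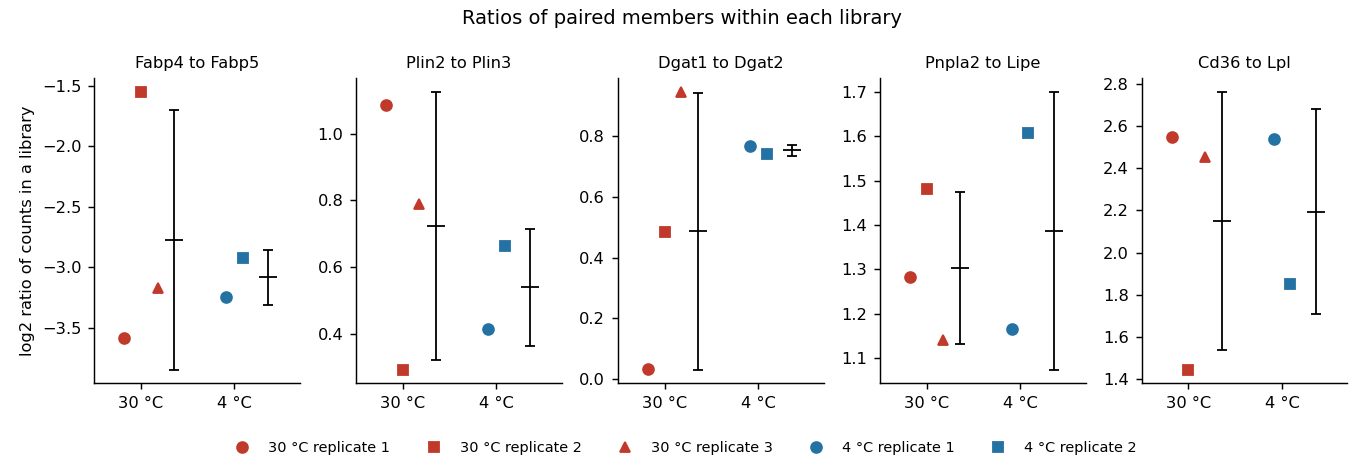
Log2 ratios of 5 pairs of members within each library, with the mean and SD of each group (3 libraries at 30 °C, 2 at 4 °C). The groups overlap for every pair, and Fabp4 to Fabp5 stands apart in 30 °C replicate 2.

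The 10 genes varied from library to library in several ways. The highest value lay in 30 °C replicate 1 for 6 members (Fabp5, Plin2, Plin3, Dgat1, Dgat2 and Lipe), where 18.9% of all genes tested had theirs. It lay in 30 °C replicate 2 for Lpl and Fabp4, in 4 °C replicate 1 for Cd36 and in 4 °C replicate 2 for Pnpla2. For Lipe this was a near tie (27.2 against 27.1 CPM in 4 °C replicate 1). Without TMM scaling, Lipe (30.5 CPM) and Cd36 (254 CPM) were highest in 30 °C replicate 3 instead. In log2 CPM centred on the mean over the libraries, 30 °C replicate 1 stood at 1.61 for Dgat2, 1.05 for Dgat1 and 0.77 for Plin2, but at -0.69 for Lpl, -0.47 for Fabp4 and -0.31 for Cd36. Dgat1, Dgat2 and Plin2 were therefore high in the library where Lpl was lowest. Cd36 was lowest there too in TMM-scaled CPM. Without TMM scaling, Cd36 was lowest in 30 °C replicate 2 (141 CPM, against 165 CPM in 30 °C replicate 1). Fabp4 was lowest by a narrow margin, at 4.04 CPM against 4.13 CPM in 4 °C replicate 1. In 30 °C replicate 2, Fabp4 stood at 1.39 and Lpl at 0.72, with Plin2 at -0.44.

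The SD of log2 CPM over the 5 libraries was 0.95 for Dgat2, larger than that of 94.2% of all genes tested, 0.80 for Fabp4 (90.7%) and 0.62 for Dgat1 (83.1%). At the other end, Fabp5 had an SD of 0.15 (11.9%), Lipe of 0.17 (15.96%) and Pnpla2 of 0.18 (19.5%). Both lipases were thus among the steadier genes, and both acyltransferases among the more variable.

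The likeness of 2 genes was measured as the root mean square (RMS) difference of their centred log2 CPM over the 5 libraries, as a description. Fabp5 and Plin3 were each other's nearest member at 0.115, and Lpl and Fabp4 were so at 0.400. The nearest member to Dgat2 was Dgat1 (0.314), and that to Dgat1 was Plin2 (0.294). Plin3 was nearest to Plin2 (0.280) and to Pnpla2 (0.166), Pnpla2 to Lipe (0.181) and Lipe to Cd36 (0.272). The pair farthest apart was Lpl and Dgat2 at 1.15. Among the wider lipid genes described next, the nearest to each member were Pde3b for Cd36, Mgll for Lpl, Lpin3 for Fabp4, Rab18 for Fabp5, Nr1h3 for Plin2, Agpat5 for Plin3, Abhd5 for Dgat1, Cebpb for Dgat2, Agpat1 for Pnpla2 and Ldah for Lipe, at RMS differences from 0.050 (Rab18) to 0.485 (Lpin3).

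**Figure D4:**
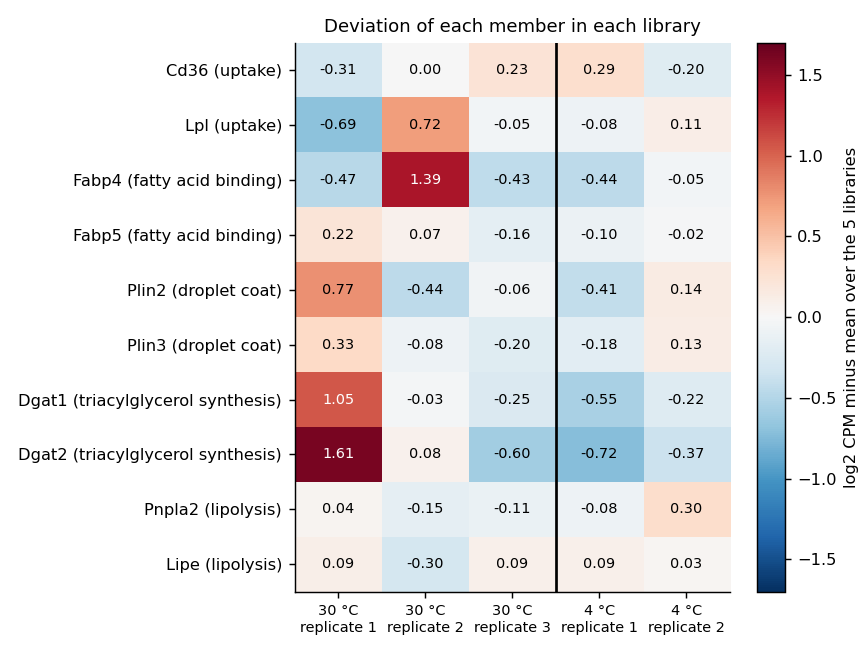
Centred log2 CPM of the 10 genes in each of the 5 libraries as colours, each gene centred on its mean over the libraries. Dgat1, Dgat2 and Plin2 are high in 30 °C replicate 1, and Fabp4 and Lpl in 30 °C replicate 2.

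The members' pathway was followed further in 98 genes of 6 lists, of which 72 passed the filter on low counts. None was called, and 5 had an unadjusted p under 0.05, which is 6.94% of those tested against 6.76% of all genes. This count depended on single libraries and on the tool: it was 11 without 30 °C replicate 3 and 11 with DESeq2, but 2 without 30 °C replicate 2 and 1 without 4 °C replicate 2, while the count over all genes went from 1090 to 1477, 1315, 520 and 540 in the same order. Of these, 3 were higher (background 2.58%) and 2 lower (background 4.17%) at 4 °C. The fold change was above 0 for 33 and below 0 for 39 genes, with a median of -0.06. The groups did not overlap for 24 genes (33.3%, background 23.3%), of which 12 were higher (background 12.2% of all genes) and 12 lower at 4 °C (background 11.0%).

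By list, glycerolipid synthesis had 4 tested genes above and 10 below 0, the lipoprotein lipase system and fatty acid uptake 7 and 9, lipolysis 8 and 11, droplet proteins 5 and 5, fatty acid binding proteins 2 and 1, and nuclear receptors and factors of lipid genes 7 and 3. The counts at an unadjusted p under 0.05 were 1 of 14, 2 of 16, 1 of 19, 0 of 10, 1 of 3 and 0 of 10 genes in the same order.

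The 5 genes with the smallest p are given with their values. Gpihbp1 anchors lipoprotein lipase to the capillary endothelium. It measured 12.6, 10.02 and 12.0 CPM at 30 °C and 18.4 and 21.2 CPM at 4 °C, so both cold libraries lay above all others, whereas Lpl itself overlapped. Its log2 fold change was 0.78 (SE 0.21, unadjusted p = 0.0084, adjusted p = 0.689, edgeR). Endothelial markers overlapped between the groups (297 to 501 CPM at 30 °C and 338 to 471 CPM at 4 °C), but T cell markers (195 to 309 against 414 to 441 CPM), B cell markers (1138 to 2851 against 2868 to 3228 CPM) and splenic mesenchyme markers (32.5 to 41.3 against 57.2 to 61.2 CPM) separated the groups as Gpihbp1 did. The smooth muscle gene Acta2, singled out after its values were seen, also did so, at 71.8, 53.6 and 78.0 CPM against 160.6 and 190.1 CPM. The 9 fibroblast and smooth muscle markers that include Acta2 overlapped in sum (474 to 991 against 696 to 1210 CPM). Of that list, only Acta2 and Tagln separated the groups, and the others, Myh11 among them, overlapped. The part of these cell types in the level of Gpihbp1 was not tested.

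Prkar2b, a regulatory subunit of the protein kinase A that acts on lipases and perilipins, measured 110.4, 124 and 96.5 CPM at 30 °C and 61.8 and 79.2 CPM at 4 °C (log2 fold change -0.65, adjusted p = 0.692, edgeR). Soat2, which esterifies cholesterol, had 10.01, 6.08 and 3.27 CPM at 30 °C and 2.34 and 2.46 CPM at 4 °C (-1.43, adjusted p = 0.707). Both were lower in each cold library than in every library at 30 °C. The remaining genes were higher in each cold library. Fabp7, the brain fatty acid binding protein, had 1.65, 1.56 and 1.79 CPM at 30 °C and 2.64 and 3.53 CPM at 4 °C (0.88, adjusted p = 0.723), and Slc27a3, an acyl-CoA synthetase of the fatty acid transport family, had 4.10, 2.79 and 4.19 CPM at 30 °C and 6.12 and 6.47 CPM at 4 °C (0.76, adjusted p = 0.730). None of the 5 passed the correction over all genes.

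Direct partners of the members were read in the same way. Abhd5, the co-activator of adipose triglyceride lipase, measured 44.3, 33.8 and 21.3 CPM at 30 °C and 19.7 and 19.5 CPM at 4 °C, with both cold libraries below all others (log2 fold change -0.75, SE 0.32, unadjusted p = 0.0547, adjusted p = 0.743, edgeR). The inhibitor of the same lipase, G0s2, overlapped between the groups at 23.9, 11.9 and 17.3 CPM at 30 °C and 16.1 and 23.2 CPM at 4 °C (0.14, adjusted p = 0.948). Mgll, which cleaves the last fatty acid, had 58.6, 81.8 and 56.8 CPM at 30 °C and 52.7 and 50.3 CPM at 4 °C (-0.35, adjusted p = 0.815). The groups of Abhd5 and Mgll did not overlap, as was the case for 23.3% of all genes, and neither gene passed the test.

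Angptl4, an inhibitor of lipoprotein lipase, measured 16.8, 10.1 and 24.1 CPM at 30 °C and 12.8 and 16.5 CPM at 4 °C (-0.22, adjusted p = 0.928, edgeR). Pparg, the receptor at the head of the adipocyte programme, measured 16.3, 13.4 and 14.8 CPM at 30 °C and 12.2 and 18.7 CPM at 4 °C (0.05, adjusted p = 0.975). Both overlapped between the groups.

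The perilipins and related proteins of adipocyte and muscle droplets were scarce. Plin4 had 106, 10 and 9 counts at 30 °C and 13 and 8 at 4 °C, so its log2 fold change of -2.01 (SE 1.19, adjusted p = 0.808, edgeR) rested on 30 °C replicate 1, and without that library it was -0.04. Plin1 had 0 to 3 counts per library, Plin5 1 to 11, Cidec 0 to 8 and the muscle binding protein Fabp3 0 to 9, and these 4 genes did not pass the filter. Plin1, the perilipin that defines the adipocyte droplet, was therefore at or below the floor of 3 counts in each of the 5 libraries.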

How the data were processed

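RNA from 5 mouse tumours was sequenced after a TruSeq library preparation from 200 ng RNA for each group. By the study's methods, the authors counted aligned reads per gene of Gencode vM19 with featureCounts. All deposited values are whole, and they were treated as raw counts without normalization. The submitters' processing notes name fastp, HISAT, RSEM and GRCm38 without roles, so which program wrote the table is not settled. The strand setting and the handling of multi-mapped reads are not given in the sources used here.

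Of 54446 entries, 333 without a name (0.0101% to 0.0170% of the counts of a library) were left out. Another 27 held a spreadsheet date where the symbol should be, and 97 symbols were shared by several entries, none of them genes of the lists used here. Counts were filtered with filterByExpr, scaled by TMM and compared by the quasi-likelihood F-test of edgeR 4.0.16 in R 4.3.3 with robust estimation and no covariate, fitted on all 16133 genes, with Benjamini-Hochberg adjustment and a threshold of 0.05. The study used the Wald test of DESeq2, which was run as an alternative (version 1.42.0). Ratios were tested by exact permutation. Lengths and coordinates came from GENCODE M21, upstream sequences from RefSeq (GRCm38.p6). Read sharing was read from 50-base windows of the transcripts.

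The members, lists and tests were chosen with earlier results of these data known. Named genes are the 10 members, their direct partners, the 5 genes with the smallest p over the wider lists, and the genes nearest to each member. The last were named for likeness only, with no fold change. Alternatives were RLE and upper-quartile scaling, no filter, a minimum of 10 counts in every library, no robust estimation, the replicate number as a block, removal of the acinar genes, and each library left out in turn. The sources used here name neither a batch nor a date of the libraries.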

Additional observations from a re-analysis of the deposited data

How the results depend on the processing

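Over the 21 genes whose fold change is given in the report (the 10 members, their tested partners and the 5 genes with the smallest p) and 13 alternatives, 254 of 272 fold changes kept their direction and none gained or lost a call. The smallest adjusted p of a member was 0.463 (Dgat2 without 30 °C replicate 3). Over all genes, 0 calls became 112 with DESeq2 and 44 with the replicate number as a block, none of them a listed gene, and 1090 genes (5 in the wider lists) passed an unadjusted p under 0.05. Under the block, log2 fold changes reversed for Lpl (0.0017) and Angptl4 (0.15), and Dgat2 reached an unadjusted p of 0.021 (adjusted p = 0.634, edgeR). No source pairs the samples, so the numbers are only shared labels. Upper-quartile scaling turned Plin3 to 0.0015 and moved the median of all genes to 0.06. With single libraries left out, log2 fold changes lay between -0.19 and 0.28 for Cd36, -0.36 and 0.35 for Lpl, -0.98 and 0.21 for Fabp4, -0.61 and 0.13 for Plin2, -0.23 and 0.13 for Plin3, -0.027 and 0.38 for Pnpla2, -0.040 and 0.15 for Lipe, -0.49 and 0.12 for Angptl4, -0.16 and 0.42 for G0s2, and -0.30 and 0.33 for Pparg. Differences of log2 ratios lay between -0.72 and 0.30 for Fabp4 to Fabp5, -0.14 and 0.31 for Pnpla2 to Lipe, and -0.31 and 0.39 for Cd36 to Lpl. The cause of these reversals was not tested. Without a 4 °C library, 1 is left in that group and is assumed to vary like the others. Between 6 and 8 members had a lower level at 4 °C over the settings that left out a library. With 3 and 2 libraries, the 95% intervals of the members still allow changes of either sign.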

Other observations

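Some lipid genes of the wider lists, chosen after their values were seen, stood far apart in single 30 °C libraries. Lipg, the endothelial lipase, measured 60.3, 8.13 and 1.83 CPM at 30 °C and 1.14 and 1.68 CPM at 4 °C. Cebpb, a factor of adipocyte and myeloid differentiation, measured 121, 31.0 and 25.3 CPM at 30 °C and 20.8 and 41.0 CPM at 4 °C, and the lipoprotein receptor Vldlr 35.0, 17.6 and 5.85 CPM against 4.67 and 14.5 CPM. These 3 genes were highest in 30 °C replicate 1, as were Dgat1, Dgat2 and Plin2. In 30 °C replicate 2, by contrast, the droplet protein Hsd17b13 had 663 counts, against 1 and 4 counts in the other 30 °C libraries and 2 and 16 at 4 °C, and the carboxylesterase Ces1d reached 7.72 CPM, against 0.149 to 1.22 CPM in the other 4 libraries. That library was also the one with the most acinar transcripts, whose part in these levels was not tested.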
